A study of Mus musculus with 2 samples.

Results

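Mir126a, Mir126b, Mir143 and Mir145a are microRNA genes known from the walls of blood vessels, the first pair from endothelium and the second from mural cells, the smooth muscle cells and pericytes that wrap vessels. They were taken by their GENCODE M21 symbols from microRNA sequencing of whole left cerebral cortex, as 4 of the 2202 microRNA genes in the tables. The tissue came from male B6CASTF1/J mice, hybrids of C57BL/6J and CAST parents, at an age of 36 days, and the labels name no treatment or transgene. The 2 libraries form 1 group, replicate 1 from the animal numbered 3 and replicate 2 from the animal numbered 4. The labels call them biological replicates, although both carry the same donor identifier, and tests on the counts of 2 libraries cover counting error, not variation between animals. With 1 group there is no comparison of conditions. What can be asked is how many reads each vascular microRNA had in the cortex libraries and how steady each was between them. Reads were not calibrated to molecules here, so levels and ratios between different genes describe reads, not amounts in the tissue.

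MicroRNAs are cut from hairpins in longer transcripts, and the mature strand guides silencing of messenger RNAs through its seed, bases 2 to 8. miR-126 is made from an intron of Egfl7, a gene for a secreted protein of endothelium, and sustains responses to vascular endothelial growth factor by repressing inhibitors of that signal. miR-143 and miR-145 lie beside each other, are thought to be cut from a shared transcript, and help vascular smooth muscle keep its contractile state. In the brain, endothelium and pericytes together form the blood-brain barrier. In whole tissue, fewer cells of a type and less RNA per cell cannot be told apart.

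The hairpin and mature sequences of miR-126 are shown because the 2 genes of that locus are read from opposite strands of the same bases, which decides how their reads are counted. They are RefSeq's, on build GRCm38.p6, where 2 of the 4 genes were matched. Capitals mark the listed mature strands in the hairpins and the seed in the mature microRNAs. For Mir126a the reference used here listed a mature strand from only the right-hand side of the printed hairpin. The left-hand side stays in lower case for that reason, which does not mean that it gives no mature microRNA.
Mir126a hairpin: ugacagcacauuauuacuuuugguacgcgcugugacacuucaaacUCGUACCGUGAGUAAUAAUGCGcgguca
Mir126b hairpin: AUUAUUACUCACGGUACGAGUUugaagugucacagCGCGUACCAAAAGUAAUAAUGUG
miR-126a-3p: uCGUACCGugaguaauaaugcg
miR-126b-5p: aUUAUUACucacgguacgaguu
miR-126b-3p: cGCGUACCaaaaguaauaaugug
The Mir126a hairpin (ENSMUSG00000065540.1) spans 73 bases of the plus strand at chr2:26591357-26591429. The Mir126b hairpin (ENSMUSG00000105799.1) spans 58 bases of the minus strand at chr2:26591363-26591420 and is the reverse complement of bases 7 to 64 of Mir126a. Mature miR-126b-5p is complementary to miR-126a-3p over 19 bases. None of the 3 seeds shown occurs at bases 2 to 8 of another of the 1738 mature microRNAs in the table. Both genes lie inside a plus-strand transcript of Gm20532, in an intron, and inside Egfl7. Egfl7 is also on the plus strand, the strand of Mir126a and opposite to that of Mir126b. Of its 9 annotated transcripts that span the hairpin, 8 hold it in an intron, which is intron 7 in all 4 transcripts of 10 exons, and 1 holds it in an exon.

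Mir143 (ENSMUSG00000065445.3) lies on the minus strand of chromosome 18 at 61649196 to 61649258 (mm10), outside annotated genes other than its own and 366 bases from the end of Carmn, a long noncoding RNA of the heart and smooth muscle. Mir145a (ENSMUSG00000065592.2) lies on the same strand at 61647825 to 61647894, with 1301 bases between the 2 genes. Multi-mapped reads, 42.8% of replicate 1 and 39.9% of replicate 2, are not in the gene counts. The longest stretch that a member's hairpin shares with any other microRNA hairpin on either strand, the Mir126 partners aside, was 12 bases for Mir126a and for Mir126b, 11 for Mir143 and 17 for Mir145a, which shares it with its relative Mir145b. All are shorter than a mature microRNA, so no exact stretch of 22 bases is shared with another annotated microRNA hairpin. Matches with mismatches and matches elsewhere in the genome were not tested. The predicted fold of the Mir126a hairpin had a free energy of -31.2 kcal per mol, and that of the Mir126b hairpin, read from the opposite strand, of -19.3 kcal per mol. The corresponding values were -36.9 for Mir143 and -30.3 for Mir145a. Per base these are -0.43, -0.33, -0.59 and -0.43, beside a median of -0.37 over all 2202 hairpins.

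Mir126a, the endothelial microRNA, had the most reads of the 4 genes in both libraries. It had 48697 counts on its own strand in replicate 1 and 43308 in replicate 2. Levels are given in CPM, own-strand counts scaled so that all microRNA genes of a library, 4273791 and 4010274 counts in replicates 1 and 2, sum to 1000000. Each read is a mature microRNA of about the same size, so counts were not divided by hairpin length. On that scale Mir126a stood at 11394 CPM in replicate 1 (exact 95% binomial interval 11294 to 11495) and at 10799 CPM in replicate 2 (10698 to 10901). The mean was 11097 ± 421 CPM (SD, n = 2), with a coefficient of variation of 3.79%. The libraries lie close together, and their counting intervals do not overlap. Intervals here cover counting error only, and the use of molecular identifiers is not given in the sources used here.

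Mir143, the main mural microRNA, came next. It had 20909 and 30011 own-strand counts, which is 4892 CPM in replicate 1 (4826 to 4959) and 7484 CPM in replicate 2 (7399 to 7568). Its mean was 6188 ± 1832 CPM (SD, n = 2), with a coefficient of variation of 29.6%. Mir145a, its neighbour, had 1222 and 834 counts, or 286 CPM in replicate 1 (270.1 to 302) and 208 CPM in replicate 2 (194 to 223). Its mean was 247 ± 55.1 CPM (SD, n = 2), with a coefficient of variation of 22.3%. Mir143 was higher in replicate 2 and Mir145a was higher in replicate 1, so the 2 mural genes differed between the libraries in opposite directions. Mir126b had 0 own-strand counts in both libraries. A count of 0 allows up to 3 counts, which is 0.702 CPM in replicate 1 and 0.748 CPM in replicate 2.

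**Figure D1:**
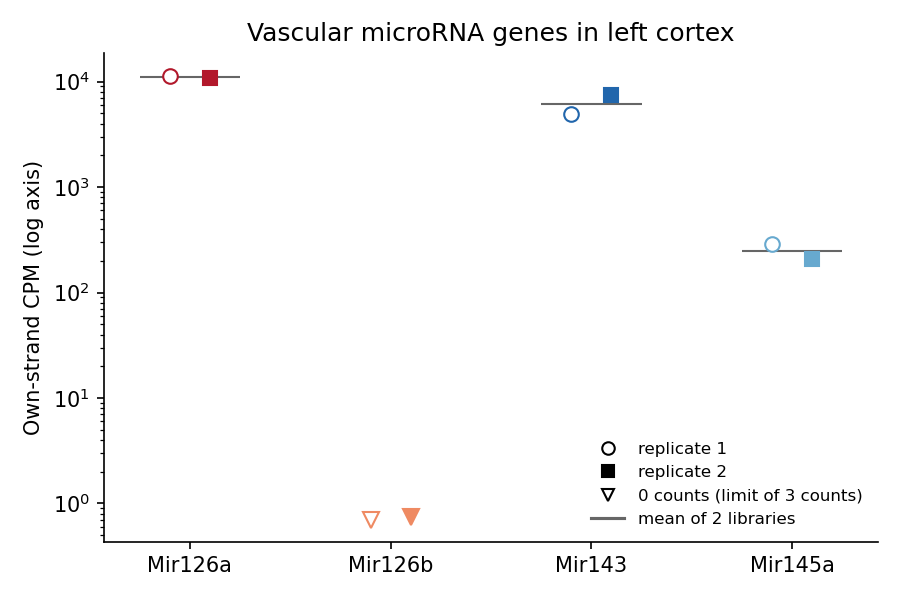
Own-strand CPM (vertical log axis) of the 4 vascular microRNA genes, with open circles for replicate 1, filled squares for replicate 2, bars for exact 95% counting intervals (mostly within the symbols), grey lines for means and triangles for the limit of 3 counts where a gene had 0. Mir126a lies near 11097 CPM in both libraries, Mir143 at 4892 and 7484 CPM, Mir145a at 286 and 208 CPM, and Mir126b at its limit.

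Of the 4 genes, 3 stood at or above 10 CPM in each library, a level that 13.6% of all 2202 genes reached (300 genes). The sum of the 4 genes was 16573 CPM in replicate 1 and 18491 CPM in replicate 2, or 1.75% ± 0.136 of the own-strand counts (SD, n = 2). Mir126a gave 68.8% of that sum in replicate 1 and 58.4% in replicate 2. Mir143 gave 29.5% and 40.5%, and Mir145a 1.73% and 1.12%. The endothelial gene thus held the larger share in both libraries, and the mural share was larger in replicate 2.

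Ordered by mean CPM among all microRNA genes, Mir126a ranked 19, Mir143 36 and Mir145a 163. Mir126a ranked 18 and 17 in replicates 1 and 2, Mir143 40 and 30, and Mir145a 156 and 166. The genes next above Mir126a were Mir330 (11136 ± 697 CPM) and Mir151 (11432 ± 2641 CPM), and those next below were Mir328 (10339 ± 134 CPM) and Mir128-1 (9537 ± 4866 CPM; SD, n = 2). The 2 values of Mir126a overlapped in range with those of Mir330, Mir151 and Mir128-1 but not with those of Mir328, which were both lower. Around Mir143 stood Mir138-1 (6323 ± 1458 CPM) and Mir221 (6444 ± 1759 CPM) above, and Mir383 (6144 ± 934 CPM) and Mir99b (5399 ± 1823 CPM) below. The range of Mir143 overlapped with all 4. Around Mir145a stood Mir125b-2 (248 ± 93.0 CPM) and Mir421 (253 ± 11.0 CPM) above, and Mir350 (233 ± 77.8 CPM) and Mir380 (218 ± 211 CPM) below, again all overlapping. With 2 values per gene, overlap of ranges or its absence describes these libraries and tests no difference between genes.

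**Figure D2:**
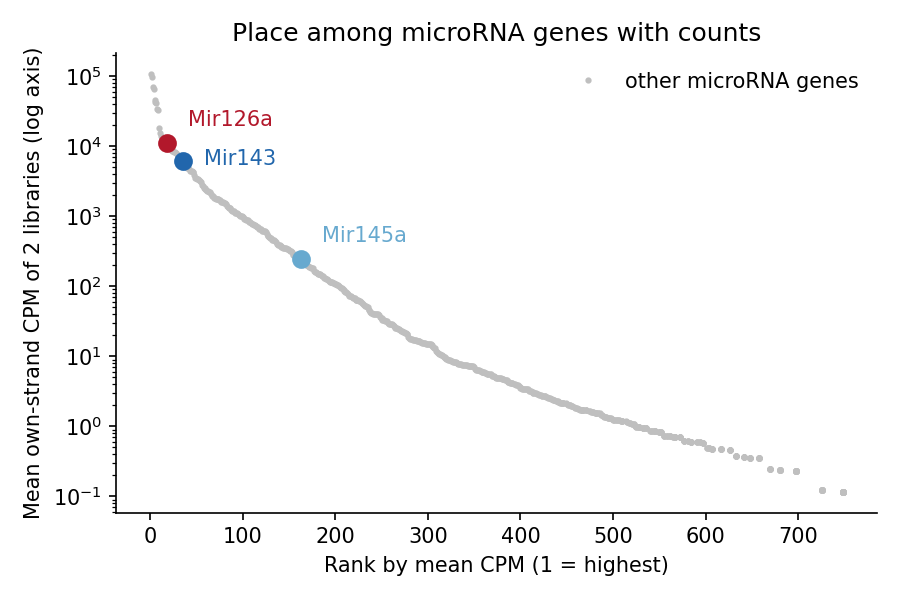
Mean own-strand CPM of the 2 libraries (vertical log axis) against rank by that mean (horizontal axis), with grey points for microRNA genes that had counts and coloured points for 3 vascular genes, whose vertical lines join the libraries. Mir126a sits at rank 19, Mir143 at rank 36 and Mir145a at rank 163, and Mir126b, with 0 counts, cannot be drawn.

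The 2 genes of the miR-126 locus could be told apart only by strand. In the column that counts reads on the opposite strand of a gene, Mir126b had 48695 reads in replicate 1 and 43307 in replicate 2. These are 2 and 1 fewer than the own-strand counts of Mir126a, and own-strand counts at Mir126b were 0 of 48697 and 0 of 43308 reads of the pair. At the limit of 3 counts per library, the Mir126b share would be 0.00616% in replicate 1 and 0.00693% in replicate 2. Mir126a stood 16232-fold above that limit in replicate 1 and 14436-fold above it in replicate 2. Opposite-strand counts at Mir126a were 0 in both libraries, as they were at Mir143 and Mir145a. Reads from the strand of Mir126b were therefore not detectable at this depth.

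Strand also decided whether miR-126 was seen at all. In the unstranded column, where a read that lies in 2 genes is set aside as ambiguous, Mir126a kept 2 and 1 counts and Mir126b kept 0 and 0. Mir143 and Mir145a, which overlap no microRNA gene, kept 20909 and 30011 and 1222 and 834 counts, the same numbers as on their own strand. The reads lost from the miR-126 locus made up 16.1% of all 303325 ambiguous reads in replicate 1 and 14.4% of all 300389 in replicate 2. Of the 32 overlapping opposite-strand pairs of microRNA genes, only that of Mirlet7e and Gm25927 held more own-strand counts than Mir126a and Mir126b. Among the 20 pairs with 100 or more counts in each library, the lower gene had 0 own-strand counts in 15, Mir126b among them. The largest mean share of a lower gene was 0.347%, for Gm24111 opposite Mirlet7f-1. All 20 pairs thus had nearly all of their reads on a single strand, and the miR-126 locus was no exception. Some pairs below that cut had reads on both strands, while others had a lower gene at 0. Mir3074-1 held 0.531% of its pair with Mir24-1 in replicate 1 and 45.4% in replicate 2, on 2 and 44 counts. Mir3107 held 10.9% and 3.16% of its pair with Mir486.

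**Figure D3:**
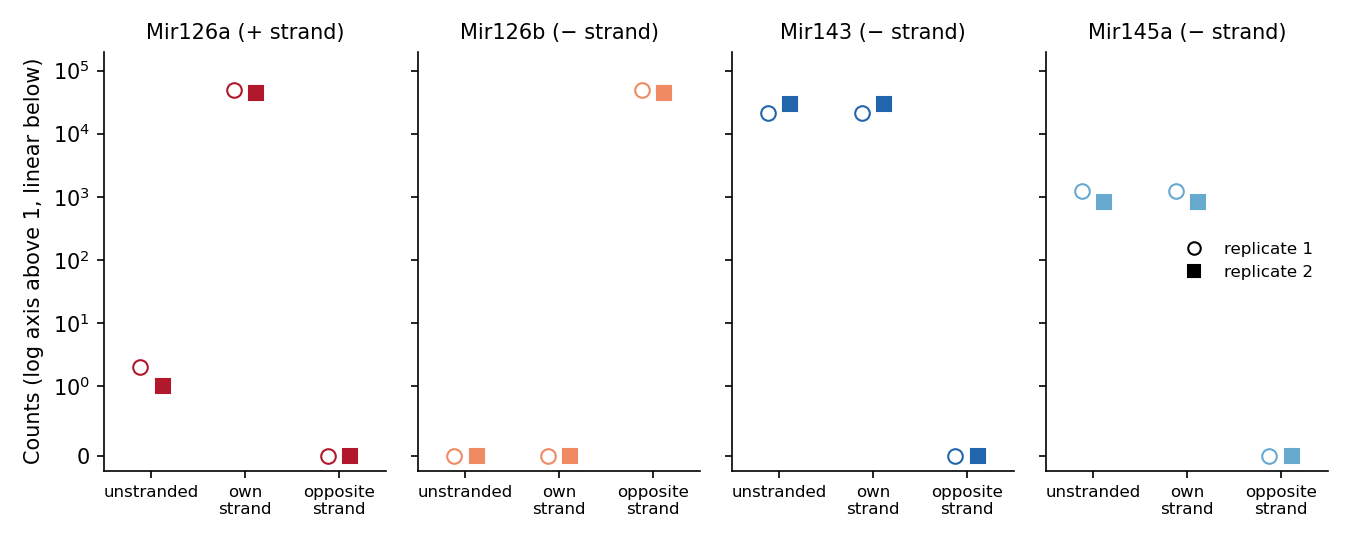
Counts (vertical axis, logarithmic above 1 and linear below) of each gene in the unstranded, own-strand and opposite-strand columns, with open circles for replicate 1 and filled squares for replicate 2. Mir126a falls from 48697 and 43308 own-strand counts to 2 and 1 unstranded counts, Mir126b has counts only in the opposite-strand column, and Mir143 and Mir145a have equal unstranded and own-strand counts.

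Mir143 and Mir145a, although neighbours on the same strand, were far from equal in level. Mir143 had 17.1 counts for each count of Mir145a in replicate 1 and 36.0 in replicate 2, a mean ratio of 26.5 ± 13.3 (SD, n = 2). Mir145a made up 5.52% of the counts of the pair in replicate 1 (exact 95% binomial interval 5.22 to 5.83) and 2.70% in replicate 2 (2.53 to 2.89). The ratio was 2.10-fold higher in replicate 2 (95% interval 1.92 to 2.30), with an adjusted p of 2.52e-60 in Fisher's exact two-sided test. This test compares the reads of 2 libraries, not conditions, and a ratio within a library does not depend on how the libraries are scaled.

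Unequal neighbours were common. Of the same-strand microRNA genes that follow each other within 2 kb, 63 pairs had both genes at or above 10 CPM in each library, and many of them share a gene or a cluster. Over the 62 pairs other than Mir143 and Mir145a, the higher gene stood above the lower by a median of 2.95 on the log2 scale, against 4.63 for Mir143 over Mir145a. By this measure 13 pairs were more uneven. The counts leave out multi-mapped reads, and stretches shared with other loci were not examined for the genes of the other pairs. How far lost reads add to the unevenness of those pairs was not tested. The most uneven were Mirlet7d with Mirlet7f-1 (7.57) and Mir29a with Mir29b-1 (7.01). By the mean of the libraries the most even were Mir195a with Mir497 (-0.03) and Mir411 with Mir379 (0.08). The former is a mean of unlike values, 0.68 in replicate 1 and -0.73 in replicate 2. Mir496a with Mir377, named after its values were seen, was more even than that in each library (0.19 and 0.20). The change of the log2 level ratio between the libraries was 1.07 for Mir143 and Mir145a and had a median of 0.75 over the other 62 pairs, of which 17 changed by more. In 32 of those 62 pairs (51.6%) the 2 genes differed between the libraries in opposite directions of CPM, as the mural genes did. With 100 CPM required, 6 of 38 pairs were more uneven, and by replicate 1 alone 20 of 63 were.

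**Figure D4:**
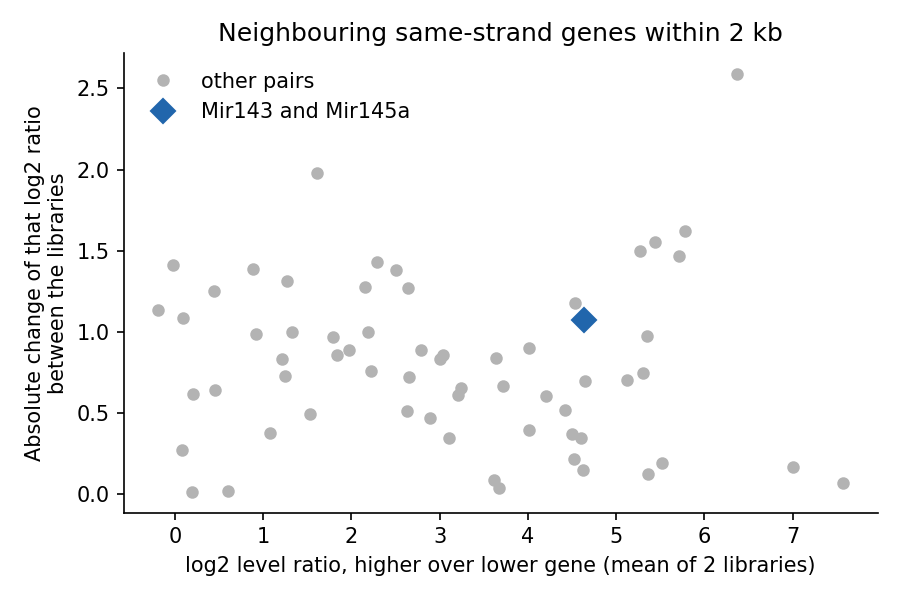
For 63 pairs of neighbouring same-strand microRNA genes within 2 kb, the log2 level ratio of the higher over the lower gene (horizontal axis, mean of 2 libraries) against the absolute change of that log2 ratio between the libraries (vertical axis), with a blue diamond for Mir143 and Mir145a and grey points for the other pairs. The diamond lies at 4.63 and 1.07, to the right of most pairs and within the spread of the others on the vertical axis.

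The libraries were then compared gene by gene. Each gene's split of counts was set against the TMM-scaled library sizes (edgeR) in an exact binomial test, two-sided, with Benjamini-Hochberg adjustment over the 516 genes whose counts reached 10 in sum. Mir143 was higher in replicate 2, its log2 ratio being 0.65 (exact 95% interval 0.63 to 0.68), and had an adjusted p at the smallest value written, 1e-300. Mir145a was lower in replicate 2, with a log2 ratio of -0.42 (-0.55 to -0.29) and an adjusted p of 2.52e-10 in the same exact test. Mir126a was lower by a small margin, with a log2 ratio of -0.04 (-0.06 to -0.02) and an adjusted p of 0.000241 in the same exact test. Under DESeq2 size factors its ratio was -0.00062 with an adjusted p of 1 in the exact test, so this call rests on the scaling. Mir126b had no counts to test. All 3 tested members were called, 1 higher and 2 lower, against 57.9% of all tested genes in either direction, 27.5% higher and 30.4% lower. Among genes with 1000 or more counts, as these 3 have, 91.7% were called, so being called is close to the rule at this depth.

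The absolute log2 ratio had a median of 0.46 over the 192 genes with 1000 or more counts together. That of Mir126a was smaller than in all but 7 of the 192 genes. Mir145a had 85 genes with a smaller absolute ratio, near the median. Mir143 had 129 (67.2%), so it differed more between the libraries than most genes of this depth. None of the 3 reached an absolute log2 ratio of 1, which together with the adjusted p was met by 19.4% of tested genes. Against the median of the tested genes, Mir126a differed by -0.00062, Mir143 by 0.69 and Mir145a by -0.38 on the log2 scale. These are the same values as under DESeq2 size factors, so they are not a separate result.

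**Figure D5:**
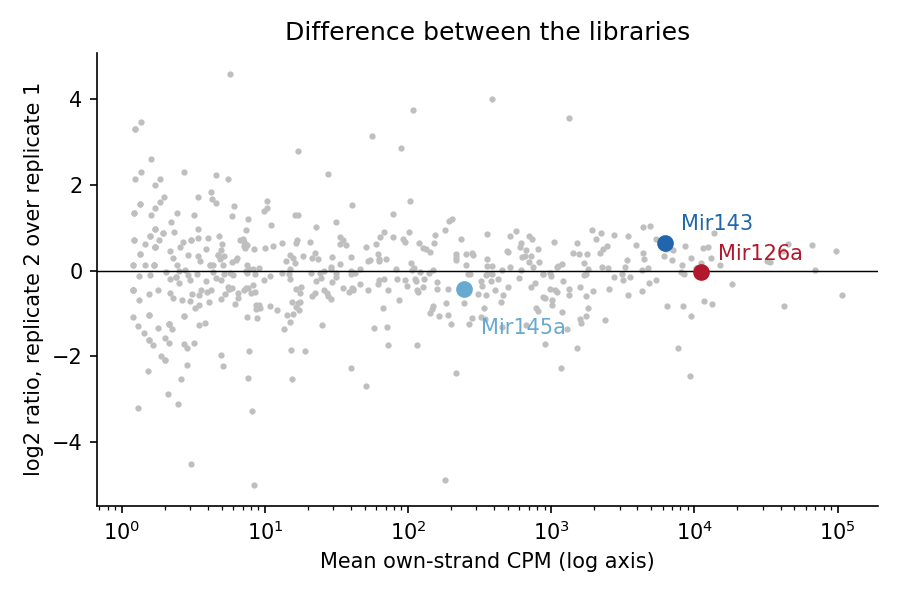
log2 ratio of replicate 2 over replicate 1 (vertical axis, TMM scaled) against mean own-strand CPM (horizontal log axis), with grey points for tested microRNA genes that had counts in both libraries and coloured points with exact 95% counting intervals for 3 vascular genes. Mir126a lies on the zero line, Mir143 at 0.65 above it and Mir145a at -0.42 below it, all within the cloud of genes of like level.

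Endothelial and mural genes were also set against each other within each library. Mir126a had 2.33 counts for each count of Mir143 in replicate 1 and 1.44 in replicate 2, a mean of 1.89 ± 0.626 (SD, n = 2). In replicate 2 the ratio was 0.620 of that in replicate 1 (95% interval 0.606 to 0.633), with an adjusted p at the smallest value written, 1e-300, in Fisher's exact test. Against Mir145a, Mir126a had 39.9 counts for each count in replicate 1 and 51.9 in replicate 2, a mean of 45.9 ± 8.54 (SD, n = 2). That ratio was 1.30-fold higher in replicate 2 (1.19 to 1.43), with an adjusted p of 4.62e-09 in Fisher's exact test. Adjustment was over the 3 pairs of members with counts. The 2 mural genes thus give opposite directions for the endothelial-to-mural ratio between the libraries.

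With only 2 libraries, likeness of pattern comes down to the log2 ratio between them. Nearest to Mir126a among the 192 genes with 1000 or more counts were Mir500 (-0.04), Mir29a (-0.04) and Mir1983 (-0.04). Nearest to Mir143 were Mir93 (0.65), Mir28a (0.65) and Mir30b (0.64), and nearest to Mir145a were Mir34c (-0.42), Mir219a-2 (-0.42) and Mir186 (-0.43). These values rest on the same 2 libraries and describe them only.

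Other microRNAs reported in endothelium, all of which other cells also make, gave 14490 CPM in replicate 1 and 19415 CPM in replicate 2 over 11 genes. Mir23a stood at 6014 and 8160 CPM, Mir221 at 5200 and 7687 CPM, and Mir130a at 1233 and 1591 CPM. None of the 11 reached the mean level of Mir126a in these counts, which leave out multi-mapped reads. Of the 11, 5 were called higher and 4 lower in replicate 2, beside 27.5% and 30.4% of all tested genes, and the median log2 ratio was -0.05 beside -0.04. Its members were thus called in both directions.

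Other microRNAs reported in smooth muscle, pericytes or fibroblasts had few counts beside Mir143. Multi-mapped reads are left out of these counts, and stretches shared between loci were examined only for the 4 members. Low counts here can therefore miss reads that fit several loci, and scarcity of these microRNAs was not tested. The list of 10 genes gave 1987 CPM in replicate 1 and 421 CPM in replicate 2, nearly all of it from Mir21a at 1953 and 394 CPM. Mir21a, which many cell types raise under stress or inflammation, stood at -2.27 on the log2 ratio (interval -2.35 to -2.19), opposite in direction to Mir143. Mir214, known from fibroblasts and pericytes, had 139 and 106 counts, and its ratio was not called (adjusted p = 0.248, exact binomial test). Mir199b had 1 and 4 counts, and Mir1a-2, a muscle microRNA, had 3 and 1. Mir145b, Mir199a-1, Mir1a-1 and Mir133a-2 were at 0 in both libraries. Only Mir21a and Mir214 had enough counts to test.

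Blood is a further part of the vessel, and microRNAs reported in blood cells differed between the libraries in both directions. The red-cell list gave 86.8 CPM in replicate 1 and 795 CPM in replicate 2. Mir451a, which builds up in maturing red cells, stood at 47.0 and 726 CPM and its neighbour Mir144 at 9.83 and 45.6 CPM. The other 2 genes of the list did not share that direction. Mir486, also of red cells, stood at 26.7 and 22.9 CPM and was not called (adjusted p = 0.499, exact binomial test), and Mir3107, which overlaps it, was called lower on 14 and 3 counts. Of the 4 genes, 2 were thus called higher and 1 lower in replicate 2, beside 27.5% and 30.4% of all tested genes. The list of leukocytes and platelets summed to 1391 and 1131 CPM, with 0 of 3 genes called higher and 2 lower, beside the same shares of all tested genes. Mir223, known from neutrophils and platelets, had 70 and 2 counts, and Mir150 of lymphocytes had 5700 and 4377. Mir451a (log2 ratio 3.99), Mir144 (2.26) and Mir143 (0.65) were thus higher in replicate 2. Mir3107 (-2.09) and Mir145a (-0.42) were lower, and Mir486 (-0.18) was not called. Mir126a, which platelets also carry, differed by -0.04. The part of blood in the values of the 4 genes was not tested.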

How the data were processed

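The deposited tables hold raw counts of reads per microRNA gene in 3 columns, and the authors mapped reads to mm10, per the deposited text files, and used the GENCODE M21 annotation. The aligner, counter and trimming were not given in the sources used here. From their layout the columns were read as unstranded, own-strand and opposite-strand counts. Own-strand counts were used. Entries that name no gene stayed out of totals: unmapped reads (16.7% and 20.9% in replicates 1 and 2), multi-mapped reads (42.8% and 39.9%) and reads outside genes (4.56% and 4.39%). The counts do not separate the arms of a hairpin.

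TMM factors (edgeR 4.0.16, R 4.3.3) came from genes with 10 or more counts together. No group contrast was fitted, since there is 1 group. Folds were predicted with RNAfold 2.7.2. Statistics used SciPy 1.17.1, NumPy 2.4.6 and pandas 2.3.3 in Python 3.11.15, and the binomial script was tested on simulated data. Alternatives included DESeq2 1.42.0 size factors. The members, the lists (endothelial, mural, red-cell, leukocyte and platelet, neuronal, oligodendrocyte, progenitor and astroglia, choroid plexus, microglia) and the tests were chosen with earlier results of these data known. Named besides the members were up to 3 genes of highest mean CPM in a list, neighbours in level, genes of nearest ratio, and the most uneven and most even pairs. Other list genes, Mir92-1, Mirlet7e, Gm25927, Gm24111, Mirlet7f-1, Mir24-1 and Mir3074-1 were named after their values were seen.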

Additional observations from a re-analysis of the deposited data

Results flagged for a closer look

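Opposite-strand counts and ambiguous reads enter no comparison between the libraries, and they lie well above the limit of 3 counts. The opposite-strand column held 48695 reads at Mir126b in replicate 1 and 43307 in replicate 2, within 2 and 1 reads of the own-strand counts of Mir126a. The unstranded column set aside 303325 reads in replicate 1 and 300389 in replicate 2 as ambiguous, of which the miR-126 locus made up 16.1% and 14.4%.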

How the results depend on the processing

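The summed level of the 4 genes was 17532 CPM. It was 6194 CPM over all reads, 19628 CPM without the most abundant gene in the totals and 6944 CPM in unstranded counts, where Mir126a is nearly lost, and each library alone gave 16573 to 18491 CPM. Mir126a kept a log2 ratio below 0 in all 9 settings that could test it (-0.15 to -0.00062), and its call was lost with DESeq2 size factors, at -0.00062. In unstranded counts it was too low to test. Mir143 (0.54 to 0.69) and Mir145a (-0.53 to -0.38) kept their direction and an adjusted p below 0.05 in the exact test in all 10 settings. Settings that changed only the count minimum or the call rule left every ratio as it was. Direction could therefore change only in settings with another scaling or count column. Where the log2 ratio also had to reach 1 in size, 0 members were called (ratios of -0.037, 0.65 and -0.42), and 40 genes were higher and 60 lower in place of 142 and 157. Totals without the most abundant gene moved the median of tested genes by -0.11. Factors computed over all genes, chosen after seeing the data, changed no member's call. With 100 CPM required, 6 of 38 neighbouring pairs were more uneven than Mir143 and Mir145a, against 13 of 63, and single libraries gave 10 to 20. For Mir126b, depth sets the limit of 0.702 and 0.748 CPM.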

Other observations

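Lists for other cell types give the setting of the vascular genes. Their sums leave out multi-mapped reads, and stretches shared between loci were not examined for these genes. A low sum, or a gene at 0, can therefore miss reads that fit several loci and need not mean a low level in the tissue. Their counts of called genes stand beside 27.5% of all tested genes called higher and 30.4% lower in replicate 2, and beside 91.7% called in either direction among genes with 1000 or more counts. The neuronal list gave 85535 CPM in replicate 1 and 53459 CPM in replicate 2, led by Mir132, Mir128-1 and Mir138-1, with 2 of 8 tested genes called higher and 5 lower in replicate 2. The summed neuronal level was above Mir126a in both libraries, and Mir124a-2 was at 0. The oligodendrocyte list summed to 5098 and 3543 CPM (0 of 3 higher, 2 lower), led by Mir219a-2 and Mir338. The list of progenitors and astroglia summed to 94.5 and 75.6 CPM (0 of 3 higher, 1 lower), the choroid plexus list to 458 and 391 CPM (0 of 2 higher, 1 lower) and the microglial list to 775 and 859 CPM (1 of 2 higher, 0 lower). The summed level of Mir143 and Mir145a, 5178 and 7691 CPM, was above that of the oligodendrocyte list in both libraries.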
